A study of Drosophila melanogaster with 3 samples.

Results

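Of 30000 candidate regions listed for the pooled reads of an anti-GFP chromatin immunoprecipitation in fly prepupae, 1225 had their summit in the transcribed, spliced part of a protein-coding gene and away from its promoter. They were chosen by position alone: the summit lay in a coding exon (709 regions) or a 3′ UTR (516 regions) and more than 500 bp from every transcription start site (TSS) of a protein-coding gene. They are called distal exonic candidates below. A summit that was coding in any transcript was counted as coding. In every protein-coding transcript that spanned them, 1012 of the 1225 (82.6%) lay in coding exon or 3′ UTR, though not always in the same of the 2. TSSs of non-coding genes were not part of the rule, and 29 of the 1225 (2.37%) lay within 500 bp of one.

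The samples were whole prepupae of pooled sexes, labelled 24 hour, from a transgenic Drosophila melanogaster line that carried CG9139 with GFP at its C-terminus. The 3 biological replicates formed 1 group, so conditions could not be compared. Sonicated fragments of 200 to 800 bp were recovered with an antibody to GFP according to the sample description, although the antibody field of the labels reads CG9139, and each replicate was set by the authors against the same control alignment, whose source is not given in the labels. The labels do not say which cells made the tagged protein, and no untagged library was analysed here. Whole animals mix all tissues, so a region cannot be assigned to a cell type.

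CG9139 is Rabex-5, an exchange factor that activates the endosomal GTPase Rab5 and also has a ubiquitin ligase domain, and it is known from endosomes rather than from chromatin. Proteins that bind DNA by sequence are mostly found at promoters and at enhancers in introns and between genes, while coding exons and 3′ UTRs are better known as parts of the messenger RNA, where they encode protein or are read by RNA-binding proteins and microRNAs. A relaxed candidate list contains background as well as peaks, so membership in it does not call a region bound. The narrower list, filtered by irreproducible discovery rate (IDR), which keeps regions ranked alike in replicates, held 4934 regions. These were the regions of pooled rank 1 to 4934, so in these lists IDR membership equals a cut on pooled signal.

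Short stretches at or beside leading summits differed in base composition, and show which of the searched motifs lay nearest. Each is given 5′ to 3′ on the strand of the host gene, from the Release 6 (dm6) genome. Capitals mark the motif match nearest to the summit, or the summit base where no searched motif lay within 100 bp. The stretches are a selection. Those of APC7 and CG46304 in 3′ UTRs and of Ubr1 and bif in coding exons, all without a searched motif within 100 bp, are not shown. The stretches for the first Lsd-2 summit, CG7872, Dph4 and Socs36E do not reach the summit. Their matches lay 39, 39, 37 and 47 bp from it, in that order. The first pair comes from one region in the 3′ UTR of Lsd-2 on the X chromosome, at chrX:15069492-15069520 with a TCF word and at chrX:15069718-15069746 with a GAGA word, both on the minus strand. The CG43389 sequence is from chr3L:3248911-3248939, plus strand, and the CG7872 sequence from chrX:15579754-15579782, plus strand, with a Zelda word read on the other strand. The others are coding: Pde1c at chr2L:11816575-11816604 with an E-box, CG13784 at chr2L:7207860-7207888, Dph4 at chr3R:5622198-5622226 with an AP-1 word, and Socs36E at chr2L:18141828-18141856 with part of a longer CAG repeat, all on the minus strand.
Lsd-2 first summit: gcgtgtcatccTTTGATCaacacgagtgc
Lsd-2 second summit: gcggtggagagGAGAGAGtggacccataa
CG43389: tcaactttgataacTaattgagttccttt
CG7872: caattatacccCTACCTGgctggtcacaa
Pde1c: agcagagtgagcCAGCTGcggagccggcag
CG13784: ctcgagcggatgacGagcactttaaggtg
Dph4: gcagacgatgaTGAGTCAcccgaagtgat
Socs36E: gcagcagcagCAGCAGCAGcacgaggccg

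Few distal exonic candidates reached the IDR list. It held 54 of the 1225, or 4.41% (exact 95% binomial interval 3.33% to 5.71%, as for all intervals below), against 16.4% of all 30000 candidates. Coding exons were lower than 3′ UTRs: 17 of 709 coding candidates (2.4%, 1.4% to 3.81%) and 37 of 516 in 3′ UTRs (7.17%, 5.1% to 9.75%) were IDR regions. Candidates over 500 bp from a TSS in introns or 5′ UTRs had a share of 14.9% (14.3% to 15.5%), and those between genes had 10.6% (10% to 11.3%). Within 500 bp of a TSS the share was also lower in exonic than in other sequence: the 388 candidates in coding exons or 3′ UTRs there had 13.7% (10.4% to 17.5%), and the other 5708 had 31.7% (30.5% to 32.9%). Regions are not replicates, and these intervals cover counting error only.

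Since the IDR list is the top of the pooled ranking, pooled rank and IDR share are not separate results. The distal exonic candidates collected at the weak end of the pooled list. They made up 0.933% of the 3000 candidates of highest signal and 7.27% of the last 3000. The median rank was 20793 for coding exons and 18919 for 3′ UTRs. In the first 3000 ranks 6 were coding and 22 lay in 3′ UTRs, whereas in the last 3000 coding exons were the more numerous, with 133 against 85.

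**Figure D1:**
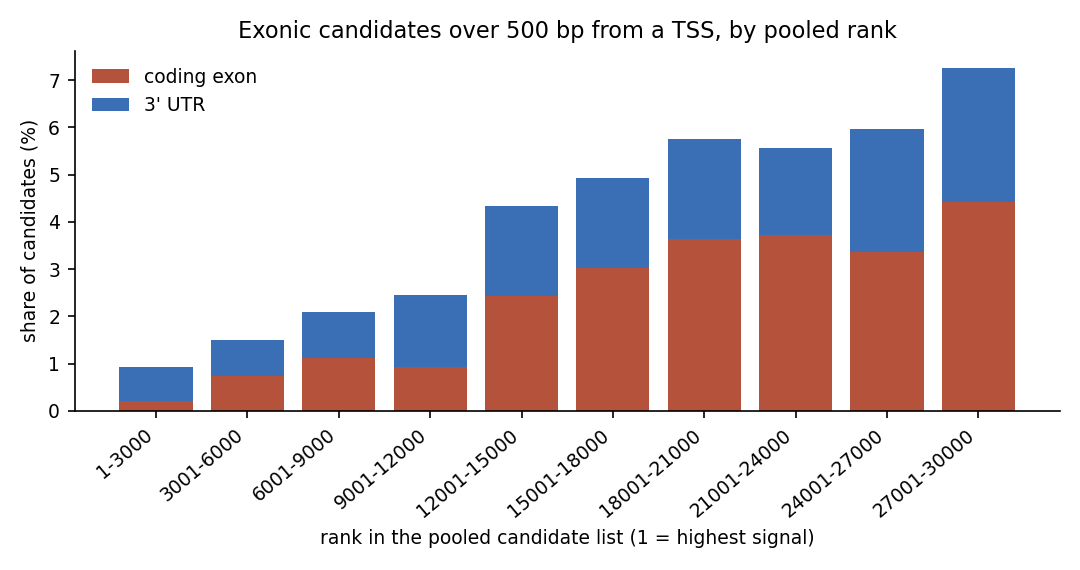
Share of all pooled candidates (y axis, percent) that lay in coding exons or 3′ UTRs over 500 bp from a TSS, in bins of 3000 by pooled rank (x axis). The bars grow from 0.933% to 7.27%, and the coding part grows more, from 0.2% to 4.43%.

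The same ordering was found when each replicate list was classified by its own summits. Distal exonic summits numbered 1664, 1619 and 1755 among the 30000 candidates of replicates 1, 2 and 3. They were 1.36%, 1.28% and 1.16% of each replicate's 4934 strongest candidates, a number equal to the IDR list, and 6.37%, 6.21% and 6.77% of the other 25066. All 3 replicates were low among the strong candidates and high among the rest, with no overlap. The mean difference was -5.19 ± 0.376 percentage points (SD, n = 3; exact two-sided sign-flip permutation test, p = 0.25, the smallest that 3 replicates allow). Coding exons contributed -3.69 ± 0.326 points of it and 3′ UTRs -1.5 ± 0.144 points (SD, n = 3 for both).

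**Figure D2:**
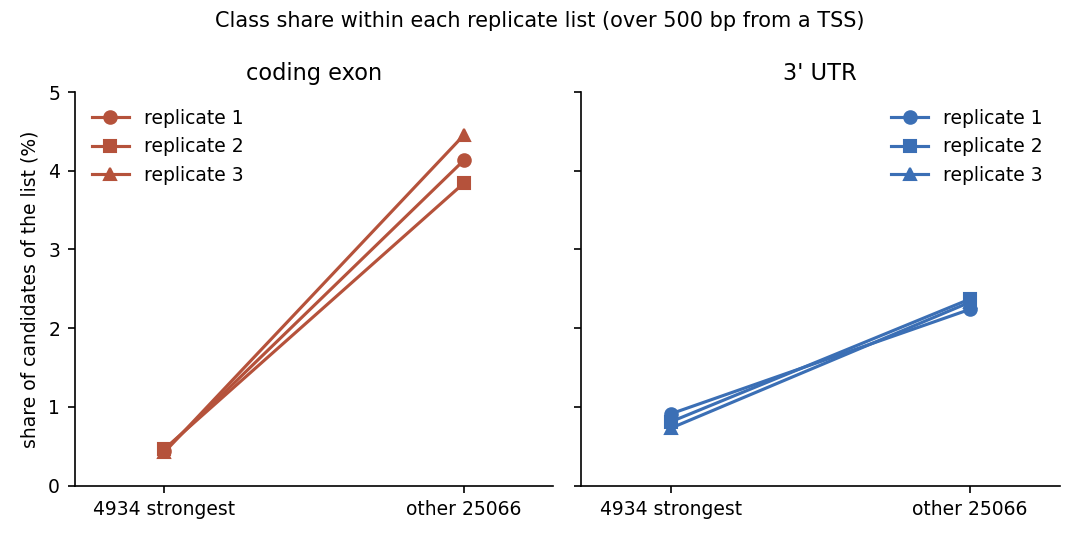
Share of each replicate's candidates (y axis, percent) that lay in coding exons (left) or 3′ UTRs (right) over 500 bp from a TSS, among its 4934 strongest candidates and among the other 25066. Each line is 1 replicate; coding exons go from 0.446% to 4.13% in replicate 1, and every line rises.

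Distal exonic candidates also recurred less between replicates. At least 1 bp of a candidate of all 3 replicates was overlapped by 292 of the 1225 (23.8%, 21.5% to 26.3%), against 47.2% of all pooled candidates. Coding exons had 19.9% (17% to 23%) and 3′ UTRs 29.3% (25.4% to 33.4%). A further 391 were listed in 2 replicates, 446 in 1 and 96 in none. Replicates 1 and 3 listed 61.1% and 60.2% of them and replicate 2 listed 50.4%, against 76.2%, 73.2% and 70.2% of all candidates. Since the pooled list was made from the same reads, part of this recurrence is built in.

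Comparison of 1 replicate's list with another's avoids the pooled list. On average 29.8% ± 2.16 of a replicate's distal exonic candidates overlapped a candidate of another replicate (SD over 6 ordered pairs, which are not independent), with pairs between 27% and 32.2%. For all candidates of a list the mean was 59.1% ± 1.91, and for its other candidates over 500 bp from a TSS it was 58% ± 2.62. The exonic share was the lower in 6 of 6 pairs, for coding exons (25.4% ± 2.79) as for 3′ UTRs (37.5% ± 1.29). The pairs were not matched on rank, and in each list exonic candidates were scarcer among the strongest than among the rest. The part of rank in this difference was not tested.

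Recurrence was also compared within bins of pooled rank. Among the first 3000 pooled candidates all 28 distal exonic ones were listed in 3 replicates, against 98% of the other candidates. Between ranks 3001 and 6000 the exonic share was 86.7% (73.2% to 94.9%) against 93.7%, between 6001 and 9000 it was 84.1% (72.7% to 92.1%) against 81.6%, and between 9001 and 12000 it was 58.1% (46.1% to 69.5%) against 64.3%. The intervals of these 3 bins span the share of the other candidates. From rank 12001 on the exonic share lay below that of the other candidates in every bin, with 34.6% (26.5% to 43.5%) against 45.9% at ranks 12001 to 15000 and 3.21% (1.3% to 6.5%) against 11.1% in the last bin.

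**Figure D3:**
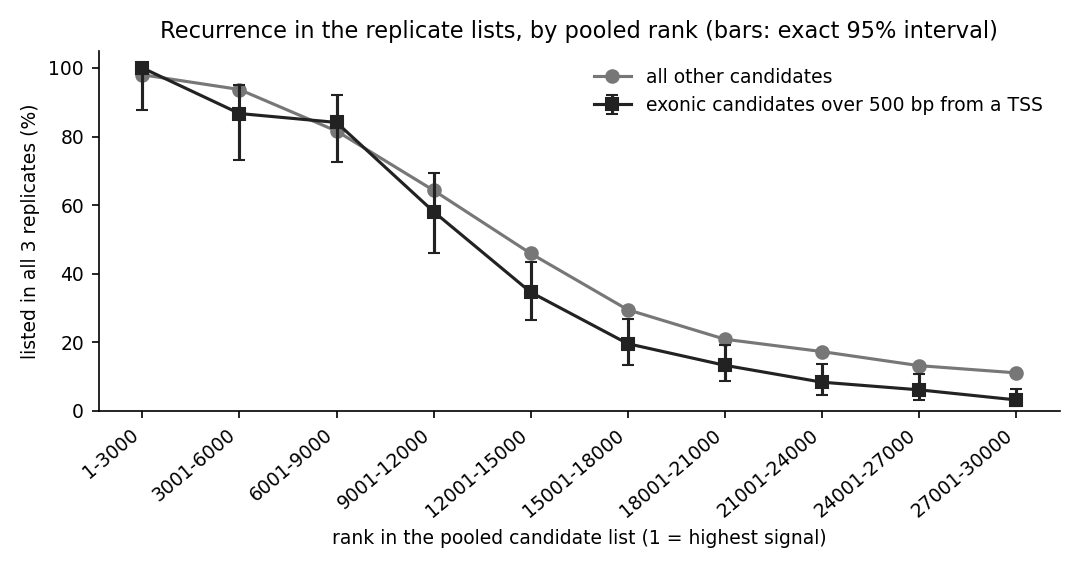
Share of candidates listed in all 3 replicates (y axis, percent) by pooled rank in bins of 3000 (x axis), for distal exonic candidates (black squares, exact 95% intervals) and all other candidates (grey circles). The black curve is lower in bins 2 and 4 with intervals that span the grey one, and from rank 12001 on its intervals lie below the grey one, at 34.6% against 45.9% in the first of these bins.

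Few were strong in every replicate. Only 29 (2.37%, 1.59% to 3.38%) overlapped one of the strongest candidates of all 3 replicates, against 11.7% of all candidates, and 25 of the 29 lay in 3′ UTRs. Within the IDR list 51 of the 54 exonic regions were listed in all 3 replicates (94.4%, 84.6% to 98.8%), against 96.8% of all IDR regions. They lay among the strongest of all 3 replicates in 23 cases (42.6%, 29.2% to 56.8%), against 58% of all IDR regions. The 3 that missed a replicate were the coding exon regions of SF2, a splicing factor, and Osbp, an oxysterol-binding protein, both absent from replicate 3, and the 3′ UTR region of CG7600, absent from replicate 1.

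Below the IDR threshold 241 of 1171 distal exonic candidates were listed in all 3 replicates (20.6%, 18.3% to 23%), against 37.5% of all candidates there. Among them 6 overlapped a strongest candidate of every replicate: 3′ UTR summits in stas, Ance-3, CNBP, Rac2 and CG14505 and a coding summit in Adsl. Each of the 6 overlapped an IDR region, so the replicate candidates matched to them may belong to the neighbouring summit. Their own ranks in the pooled list ran from 6372 for stas to 19895 for CG14505.

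Lsd-2 (FBgn0030608) had the strongest distal exonic region, in its 3′ UTR. The gene encodes a perilipin of lipid droplets. The region spanned 871 bp, at chrX:15069269-15070139, and ranked 8 of 30000 in the pooled list. Relative signal is given below, since the authors' signal is comparable only within a list. A replicate's value at the summit (within 100 bp) was divided by that replicate's median across IDR regions. The median used the strongest candidate overlapping each IDR region, which can exceed the value at its summit. For the first Lsd-2 summit the relative signal was 10.5, 7.18 and 10.4 in replicates 1, 2 and 3. A second summit of the same region, at position 15069744 where the first was at 15069545, ranked 194 and had 2.47, 2.82 and 4.03. All 3 replicates placed both summits above their IDR median.

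A separate pair of overlapping regions lay farther upstream in the same 3′ UTR of 3310 bp. The stronger, at chrX:15070928-15071357 (rank 1928), had relative signals of 0.872, 1.49 and 1.31. The weaker ranked 4217 and had a summit within 100 bp in replicates 1 (0.863) and 3 (0.675) only. Lsd-2 was thus the host of 4 of the 37 IDR regions in 3′ UTRs, in 2 clusters. The TSS nearest to all 4 was that of a neighbouring gene, dob, at 2538 to 4347 bp.

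CG43389 had the next region, at chr3L:3248683-3249120 (rank 188), with relative signals of 3.79, 3.05 and 3.02. Its summit lay 415 bp from the TSS of a non-coding gene. Ppa, which encodes an F-box protein of a ubiquitin ligase, followed at 2.18, 2.34 and 1.5 (rank 519). APC7, a subunit of the anaphase-promoting complex, had 1.83, 2.28 and 1.47 (rank 689). These 3 were above the IDR median in every replicate.

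Further down, CG46304 had 1.37, 2.48 and 2.12 (rank 731), and CG7872 had 1.83, 1.31 and 1.52 (rank 932). GIIIspla2, a secreted phospholipase A2, had 1.77, 1.35 and 1.54 (rank 935). The region of puml had 1.3, 1.4 and 1.91 (rank 1044). Every one of these values was above the IDR median.

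The last 3 of the leading 3′ UTR regions varied more. SdhC, a membrane subunit of succinate dehydrogenase, had 2.05, 0.894 and 1.04 (rank 1145). CG33494 had 1.61, 0.887 and 1.42 (rank 1271). The region of tey, which encodes a zinc finger transcription factor, had 1.92, 1.11 and 0.608 (rank 1371) and was the only one of the leading 12 outside the strongest candidates of a replicate, replicate 3.

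The leading coding exon regions were weaker. The strongest lay in Pde1c, a cyclic nucleotide phosphodiesterase gene, at chr2L:11816481-11816706 (rank 952), and its relative signals were 2.07, 1.09 and 1.34. CG13784 at chr2L:7207827-7207998 (rank 1425) had 1.35, 1.09 and 1.42. Dph4, which encodes a J-domain protein of diphthamide synthesis, had 1.31, 0.874 and 1.34 at chr3R:5622146-5622282 (rank 1548). These were the only coding IDR regions among the strongest candidates of all 3 replicates. At Dph4 the summit did not lie in coding exon or 3′ UTR in every transcript that spanned it. A further protein-coding gene, Spec2, covered the summit on the same strand.

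The next 4 coding regions were high in some replicates and low in others. The homeobox gene otp had 1.22, 0.64 and 0.526 (rank 2484), high in replicate 1. Socs36E, a suppressor of JAK-STAT signalling, had 0.491, 1.19 and 1.1 (rank 2558), and bif, an actin-binding protein gene, had 0.384, 1.19 and 0.994 (rank 3068). Both were lowest in replicate 1. Ubr1, a ubiquitin ligase of the N-end rule, had 1.04, 1.05 and 0.605 (rank 2603), lowest in replicate 3.

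The other 5 leading coding regions lay below the IDR median in all 3 replicates. They were CG6356 (0.658, 0.601 and 0.879), lark, an RNA-binding protein gene (0.802, 0.633 and 0.507), cGlr2, a cGAS-like receptor gene (0.528, 0.584 and 0.895), CG42748 (0.739, 0.661 and 0.433) and Snx27, a sorting nexin gene (0.582, 0.552 and 0.663). Snx27 had the smallest spread, with a mean of 0.599 ± 0.058 (SD, n = 3), and ranked 4363.

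**Figure D4:**
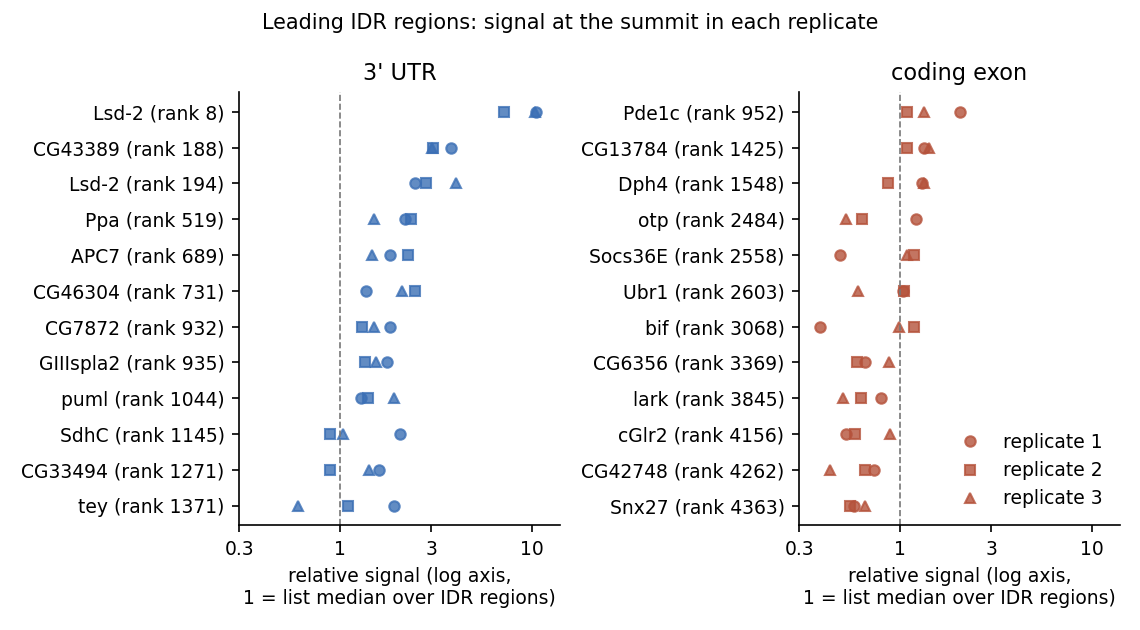
Relative signal at the summit in each replicate (x axis, log scale; 1 is the replicate's median over IDR regions) for the 12 leading IDR regions in 3′ UTRs (left) and in coding exons (right), with their pooled rank. Points are replicates; Lsd-2 lies at 7.18 to 10.5, and the lower 5 coding regions lie below 1 in all 3 replicates.

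The other IDR regions in 3′ UTRs had hosts stas, Ance-3, CG14440, Rap1, Adsl, NetB, CG5984, CG43938, Rac2, PGRP-LA, CG42445, qvr, Tollo, CG43844, jigr1, mthl1, CG7600, hng3, mamo, CG12680, Lam, Pits and Myd88. Those in coding exons had SF2, Osbp, CG4230, CG13073 and SCAP. The 54 regions had 51 host genes, or 0.365% of 13968 protein-coding genes, as the candidates of all ranks had 1000 (7.16%). Among them are a Ras-family GTPase (Rap1), a netrin guidance cue (NetB) and the adaptor of Toll signalling (Myd88). Others are a Toll-family receptor (Tollo), a B-type lamin (Lam) and the SREBP partner (SCAP).

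The host gene was often not the gene with the closest start. The TSS nearest to the summit belonged to a gene other than the host for 20 of these 37 (54.1%), and for 254 of all 516 candidates in 3′ UTRs (49.2%). In coding exons it did for 7 of 17 IDR regions (41.2%) and 236 of 709 candidates (33.3%). Of the IDR regions nearest to the distance limit, the summits of CG43844 (529 bp from its own TSS) and Lam (577 bp from the TSS of Oscillin) were just inside. Those in the 3′ UTRs of Hsp67Ba (495 bp from Hsp26) and CG4456 (428 bp from Hsp22) were just outside. Their mean relative signals by overlap were 0.701, 0.651, 1.09 and 0.872.

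In 3′ UTRs the share in the IDR list was highest close to a TSS. From 501 to 1000 bp it was 15.9% (13 of 82, 8.72% to 25.6%), and for 8 of these 13 that TSS belonged to another gene. It was 7.58% at 1001 to 2000 bp, 6.32% at 2001 to 5000 bp and 2.34% beyond 5000 bp. Other candidates went from 20.4% to 16.6%, 14.2% and 10.7% over the same bins. Coding exons stayed low, at 2.72%, 1.73%, 4.55% and 0.568%, and the bins rest on 1 to 8 IDR regions each.

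**Figure D5:**
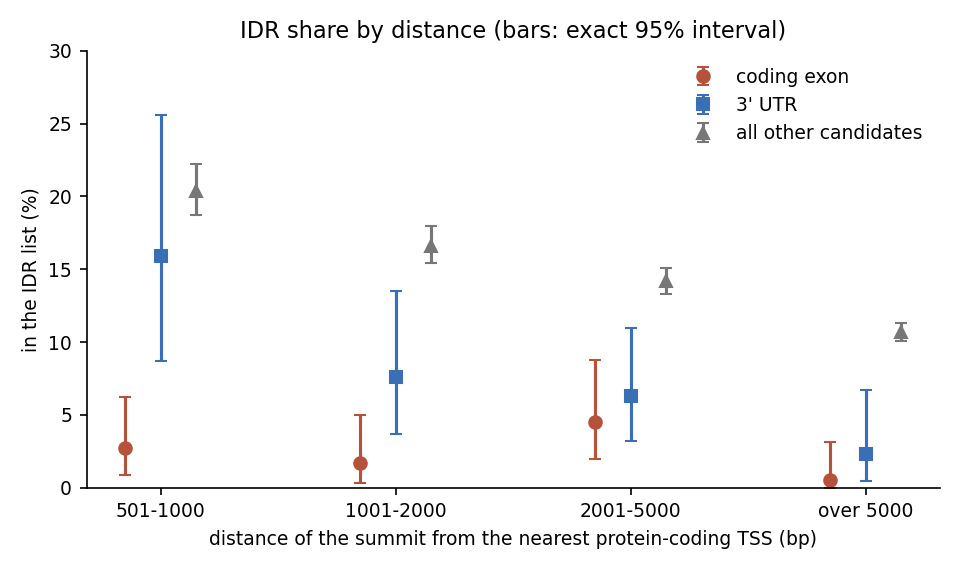
Share of candidates in the IDR list (y axis, percent; bars are exact 95% intervals) by distance of the summit from the nearest protein-coding TSS (x axis, bp), for coding exons, 3′ UTRs and all other candidates. In the nearest bin the interval of 3′ UTRs, 8.72% to 25.6%, spans the 20.4% of other candidates, and coding exons are at 2.72%.

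Base composition differed between the classes. The median GC content within 100 bp of the summit was 52.2% in coding exons and 39.8% in 3′ UTRs, against 42.8% in all candidates and 38.8% in IDR regions. Within strata of GC content the distal exonic share in the IDR list was 8.02% under 35% GC (4.34% to 13.3%), against 23.8% of other candidates over 500 bp from a TSS. It was 4.73% against 13.2% at 35 to 45% GC, 3.83% against 6.91% at 45 to 55%, and 2.8% against 9.93% above. In the third stratum 3′ UTRs alone had 5.8% (2.54% to 11.1%), an interval that spans the other candidates. Coding exons had no IDR region among 107 candidates at 35 to 45% GC (upper limit 3.39%).

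Where the summits lay in the exons was measured next. Coding summits were a median of 135 bp from the nearer edge of their exon, 42% were within 100 bp of it, and 36% of the regions lay wholly in coding exon or 3′ UTR. In 3′ UTRs 16.9% were within 100 bp of an exon edge and 69% of the regions lay wholly in such sequence. The exons had a median length of 698 bp for coding summits and 2101 bp for 3′ UTR summits. No background of other exon positions was compared. The summits of 3′ UTR candidates lay at a median of 56.6% of the UTR from its start. More than 50% of the bases were repeat-masked in 18 of the 1225 regions.

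On the chromosome arms, X held 17 of the 54 IDR regions from 226 distal exonic candidates (7.52%). The shares were 5.15% on 3L (12 regions), 3.47% on 3R (10), 3.46% on 2L (8) and 2.9% on 2R (7). The interval on X, 4.44% to 11.8%, overlapped those of the other arms. Of all candidates, 17.3% on X and 15.7% to 16.8% on the other arms were IDR regions. Of the 17 on X, 4 were the Lsd-2 regions. Chromosome 4 had 6 candidates, all coding, and no IDR region.

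Most host genes had a single candidate, 827 of 1000, and 47 had 3 or more. CG12851 and toc had 5 each, of which none was an IDR region. A further 12 genes had 4 each, and those with the strongest candidates by pooled signal were Lsd-2, Rac2, mamo and Glut4EF. The host genes were long, with a median of 6712 bp against 2164.5 bp for all protein-coding genes and 4163 bp for the hosts of IDR regions. Longer genes offer more exonic sequence, and the part of length in the counts of host genes below was not tested.

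In every list of genes for tissues, pathways and complexes, hosts are counted as genes with at least 1 distal exonic candidate, beside the 7.16% of all protein-coding genes. Candidates and IDR regions elsewhere in or near these genes were not counted. Only 0.365% of all protein-coding genes had a distal exonic IDR region, so a list of this size is likely to hold none. Muscle genes had 9 of 26, led by bt (projectin), TpnC73F (troponin C) and Zasp52, a Z-disc protein, and none had a distal exonic IDR region. The muscle candidates were weak: bt ranked 16072, TpnC73F 16307 and Zasp52 19274. Imaginal disc patterning genes had 9 of 33, led by ap, hth and eya, and none had a distal exonic IDR region. The coding candidate of ap, a LIM-homeodomain factor of dorsal wing identity, ranked 5097 and had 0.235, 0.741 and 0.778.

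Genes of the ecdysone response had 6 of 30, and mamo, a zinc finger factor, had the only distal exonic IDR region, in its 3′ UTR of 7983 bp. Its values were 0.719, 1.02 and 0.402, and its nearest TSS, 613 bp away, was that of AMPdeam. The nuclear receptor gene Hr4 had a 3′ UTR candidate at rank 5006, just below the threshold, with 0.898, 0.304 and 0.254, and E23, an ABC transporter gene, had a coding exon candidate at rank 13230. Fat body and lipid genes had 4 of 22, with Lsd-2 in the IDR list and foxo and FASN2, a fatty acid synthase gene, below it. Signalling genes had 11 of 52, with Socs36E in the IDR list and the kinase gene sgg and kek1, a gene of a regulator of EGF receptor signalling, below it.

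Neuronal genes had 6 of 25, led by fne, which encodes an Elav-family RNA-binding protein, para, a sodium channel gene, and brp, an active zone protein gene. Chromatin and insulator genes had 6 of 37, led by mod(mdg4), Su(z)2 and trx. Notch pathway genes had 3 of 29 (Ser, fng and sno), cuticle genes 2 of 43 (TwdlE and dy) and hemocyte genes 1 of 18 (Hml). Male germline genes had 1 of 26 (can) and Rab and endocytosis genes 1 of 39 (Rab10). None of these lists had a distal exonic IDR region, beside 0.365% of all protein-coding genes. Hox genes (11) and cytosolic ribosomal protein genes (79) had no distal exonic candidate.

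The tagged gene itself, Rabex-5 (FBgn0262937, at chr3L:1295913-1298497), held no pooled candidate, and no replicate summit lay inside it.

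Motif words were searched to 100 bp on either side of each summit, on both strands, and a match is a description of the sequence. The word TTCNNNGAA (STAT) was in 6 of the 54 IDR regions (11.1%, 4.19% to 22.6%), against 4.81% of all candidates. TGANTCA (AP-1) was in 5 (9.26%, 3.08% to 20.3%), against 4.45%. TAATTA (homeodomain) was in 4 (7.41%), all in 3′ UTRs, against 11.1%. All 3 intervals span the share over all candidates.

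Repeats differed between the classes. A CA repeat, CA 5 times in a row, was in 5 of the 37 IDR regions in 3′ UTRs and none of the 17 in coding exons. It was in 6.59% of all 3′ UTR candidates and 0.705% of coding ones, against 4.22% of all candidates. The GAGA factor word, GAGAGAG, was in 3 IDR regions, all in 3′ UTRs, and in 4.65% and 1.13% of the classes, against 6.11%. CAGCAGCAG, which in frame encodes glutamine repeats, was in 3 coding IDR regions (otp, Socs36E and CG13073) and no IDR region in a 3′ UTR. It was in 8.74% of all coding candidates and 1.36% of those in 3′ UTRs, against 2.32% of all candidates.

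Of the other words, CAGCTG (E-box) was in 13.3% of coding candidates and 7.95% of those in 3′ UTRs, against 9.21% of all. CACGTG (E-box) was in 4.09% and 1.36%, against 2.56%. TTTGATC (TCF) was in 3.53% and 2.91%, against 2.17%, and CAGGTAG (Zelda) in 0.846% and 0.969%, against 0.9%. The word CACTGAGA was taken from an earlier analysis, so its shares are not an independent observation. It was in none of the 54 IDR regions (upper limit 6.6%) and in 0.898% of the distal exonic candidates. The shares were 1.92% of all candidates and 3.38% of all IDR regions. TGTTTAC (Foxo) was in 2 of the 54, against 4.73% of all candidates. AGATAAG, a word of GATA factors, was in 1 (2.57% of all), and CCACACCC, the CACC box, in 1 (0.85% of all). None of the 54 held TATCGATA (DREF), GGTCACACT (M1BP), TCAAGGTCA (nuclear receptor), GTGGGAA (Su(H)), AACCGGTT (Grainyhead), TGATGCAA (C/EBP or Atf4) or GCCGCCAT (Pho). These words were rare in all candidates too, from 0.12% (nuclear receptor) to 2.62% (Su(H)). None held a pair of CGATA words 6 bases apart (BEAF, 0.07% of all) or GAA then TTC then GAA at steps of 2 bases (heat shock, 0.207% of all). AGGTCA followed after 1 base by TGACCT (ecdysone receptor) was in none of the 30000 candidates, so its absence here tells nothing.

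Signals were correlated between replicates, with lower coefficients for the distal exonic candidates than for all candidates. Across the candidates listed in both replicates of a pair, the Spearman correlation was 0.547 for replicates 1 and 2 (421 regions), 0.49 for 1 and 3 (435) and 0.507 for 2 and 3 (411). For all candidates the values were 0.701, 0.677 and 0.706. Among the IDR regions they were 0.604, 0.447 and 0.606 for the exonic ones and 0.667, 0.603 and 0.708 for all. The points share libraries and the same control, a narrower range of signal lowers a correlation, and the difference was not tested.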

How the data were processed

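Lists of candidate regions on dm6 were used for the pooled reads and for each of 3 replicates, with the IDR list. The dm3 lists were not used. Signal in each list is the enrichment deposited by the authors relative to 1 control alignment, and -log10 q values are deposited beside it and were not used. Aligner, caller and IDR threshold: not given in the sources used here. No list holds counts, so depth per sample is unknown.

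Summits were placed in Ensembl release 115 annotation, with sequence from the soft-masked Release 6 genome, in Python 3.11.15 with numpy 2.4.6, scipy 1.17.1, pandas 2.3.3 and matplotlib 3.10.9. An overlap of at least 1 bp counted as shared. The strongest candidates of a replicate were its 4934 of highest signal. Relative signal is the value over the replicate's median across IDR regions. The value is taken by overlap for means and by summit within 100 bp for single values, and the median is by overlap for both. Intervals are exact (Clopper-Pearson) and cover counting error only. The 1 test, of a class share over replicates, was an exact sign-flip permutation test, for which 6 replicates would be needed to reach 0.05. Placement and overlap were checked on simulated positions. No deposited column of sample values was left unmatched (0).

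The members, gene lists and motifs were chosen with earlier results of these data known. Named genes are the hosts of the 12 strongest IDR regions per class that all 3 replicates list, and those nearest the distance limit. Also named are the 6 hosts with most candidates, with ties taken by highest pooled signal, and up to 3 hosts per gene list by signal. The other IDR hosts, all candidates strong in every replicate but under the threshold, and regions missing a replicate were named after their values were seen.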

Additional observations from a re-analysis of the deposited data

How the results depend on the processing

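No paired analysis was possible because there is 1 group. Of the 64 alternatives, 43 kept the value and 21 moved it. A value was kept within 1.5 times (counts), within its exact interval (shares), or with its sign (the difference between strong and weak candidates). Only the last kind could reverse, and its 7 alternatives kept the sign. Counting candidates that overlap an IDR region by 1 bp gave 6.2% in place of 4.41%, and 3.95% in place of 2.4% for coding exons. Keeping IDR regions strong in both other replicates when 1 was left out gave 2.2% to 2.61% of all distal exonic candidates, 0.705% to 0.846% of coding exons and 4.26% to 5.04% of 3′ UTRs, a stricter rule by construction. Listing in all replicates was 15.8% when 50% of both regions had to overlap (32.8% of all candidates) and 9.39% with summits within 100 bp (23.8% of all); with 1 replicate left out it was 33.6% to 35.5%, against 55.4% to 57.7% of all. Strength in all replicates was 1.06% for the top 2000 (5.19% of all) and 6.78% for the top 10000 (21.8% of all), and 3.02% to 3.67% with 1 replicate left out (13.7% to 14.3% of all). The difference of -5.19 points stayed between -4.16 and -6.02, and between -4.97 and -5.32 with 1 replicate left out. Windows of 50 bp gave a STAT word in 3.7% and a CAG repeat in 0% of IDR regions; smaller windows hold fewer words by construction. Intervals and strata for each class, GC content and TSS distance, summit-matched signals and the replicate pairs were chosen after seeing the data. Depth is unknown, so a weak region cannot be told from an undersampled one.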
